A study of Mus musculus with 7 samples.

Results

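Voltage-gated calcium channels open when a neuron depolarises and let calcium in, which drives transmitter release, firing and activity-dependent gene expression. Each channel has a pore-forming α1 subunit that sets its type, an auxiliary α2δ subunit that aids its delivery to the membrane and to the synapse, and a cytoplasmic β subunit that aids its exit from the endoplasmic reticulum. In the cerebellum the best known of them is *Cacna1a*, the P/Q-type pore, whose mutations cause ataxia. The members described here were a named list of 10 genes out of 21938 protein-coding genes. They were *Cacna1a* (P/Q-type), *Cacna1b* (N-type), *Cacna1e* (R-type), *Cacna1c* and *Cacna1d* (both L-type), the α2δ genes *Cacna2d1*, *Cacna2d2* and *Cacna2d3*, and the β genes *Cacnb2* and *Cacnb4*. A peak was assigned to a gene when its centre lay inside it or within 50 kb of it. No such windows of members overlapped each other. The genes are long, from 129.7 kb (*Cacna2d2*) to 816.9 kb (*Cacna2d3*), with a median of 412.3 kb against 17.43 kb for all protein-coding genes. For that reason the comparison group below was the 2492 protein-coding genes of 100 kb or more. Their median length of 168.5 kb is still below that of the members, so a share of genes with a peak in this group comes from shorter windows.

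Peak tables of 5 ChIP-seq libraries were used, with 1 library per condition. Granule neuron progenitors (GNPs), the dividing precursors of cerebellar granule neurons, were isolated without culture from C57BL/6 pups (C57BL/6N in the methods) at postnatal day 7 on a Percoll gradient. Wild-type (WT) GNPs, from Chd7 f/f mice, gave an H3K27ac library, a mark of active promoters and enhancers, and a library of Chd7, a chromatin remodeller. *Chd7*-deficient GNPs, from Atoh1-Cre::Chd7 f/f mice, gave a second Chd7 library that shows what the antibody retains without its target. Granule neurons (CGNs) of both genotypes, made by keeping GNPs without Sonic hedgehog for 48 h, each gave a library of Top2b, a topoisomerase that relieves DNA torsion and is used by long neuronal genes. Atoh1-Cre acts in the granule lineage and probably recombines less in the posterior lobe, so deficient cells may include some that kept Chd7. Input libraries of GNPs and CGNs were not analysed here. Without replicates no difference below could be tested, and the counts describe these libraries. Intervals are exact binomial or Poisson intervals at the 95% level and cover counting error only.

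The tables held 31400 H3K27ac peaks, 1946 Chd7 peaks of WT GNPs, 96 Chd7 peaks of *Chd7*-deficient GNPs, and 17030 and 21505 Top2b peaks of WT and *Chd7*-deficient CGNs. Read totals are not in the tables. All 10 markers of GNPs had H3K27ac at a start site, none of 5 Purkinje cell and none of 3 microglial markers did, and the mark was present at 2 of 3 interneuron, 2 of 4 astrocyte or Bergmann glia, 1 of 4 oligodendrocyte and 1 of 2 endothelial markers. The part of such other cells in the H3K27ac peaks described below was not tested.

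Chd7 was called at 3 of the 10 calcium channel genes, once at each. The 3 genes were *Cacna1c*, *Cacna1a* and *Cacna2d1*. For comparison, 20.9% of protein-coding genes of 100 kb or more and 14.3% of all protein-coding genes had a WT Chd7 peak in the same window. None of the 3 peaks lay at a start site. They sat in introns, 471.6 kb from the 5′-most start of *Cacna1c*, 166.3 kb from that of *Cacna1a* and 152.5 kb from that of *Cacna2d1*. The nearest annotated start of the same gene was 17.65, 7.62 and 61.45 kb away. In *Chd7*-deficient GNPs none of the 10 windows held a Chd7 peak, and 0.0803% of long genes (2 of 2492) had one.

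The sequences under these peaks are shown because they are the only places at the 10 genes where Chd7 was found, and the strongest H3K27ac peak of *Cacna2d1* stands beside them as an acetylated site without Chd7. Each is plus-strand sequence of mm10 that reaches 60 bases to either side of the peak summit, in lower case, with matches to any searched motif in capitals.
*Cacna1c* Chd7 summit, chr6:118724737-118724857: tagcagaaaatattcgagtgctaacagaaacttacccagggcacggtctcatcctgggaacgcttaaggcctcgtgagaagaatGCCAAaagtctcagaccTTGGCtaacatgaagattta
*Cacna1a* Chd7 summit, chr8:84554649-84554769: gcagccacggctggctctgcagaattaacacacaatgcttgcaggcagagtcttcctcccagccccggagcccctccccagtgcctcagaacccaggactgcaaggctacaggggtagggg
*Cacna2d1* Chd7 summit, chr5:16087108-16087228: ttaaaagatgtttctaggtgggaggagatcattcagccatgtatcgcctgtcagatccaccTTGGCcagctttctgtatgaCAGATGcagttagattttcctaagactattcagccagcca
*Cacna2d1* H3K27ac summit, chr5:16095801-16095921: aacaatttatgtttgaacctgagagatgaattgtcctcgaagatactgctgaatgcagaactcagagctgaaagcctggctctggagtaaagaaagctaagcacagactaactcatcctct

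The motifs searched on both strands were the E-boxes CAGCTG and CAGATG of the Atoh1 and Neurod1 class, the nuclear factor I (NFI) core TTGGC, the full NFI palindrome that contains this core on each side, CAGCAGG of the Zic class and ACCGGAAG of the Ets class. The *Cacna1c* summit held 2 NFI cores on opposite strands, starting at bases 85 and 102 from the left end. The *Cacna2d1* Chd7 summit held 1 NFI core, starting at base 62, and 1 CAGATG, starting at base 82. The *Cacna1a* summit and the acetylated *Cacna2d1* summit held none of the motifs. Over all 1902 WT Chd7 summits on assembled chromosomes, 32.8% held TTGGC, 16.5% CAGATG, 12.9% CAGCTG, 5.89% CAGCAGG, 0.368% ACCGGAAG and 0.0526% the full palindrome. Over all 31395 H3K27ac summits the shares were 19.7%, 9.36%, 7.58%, 4.87%, 0.255% and 0.00637%. Among the 108 H3K27ac summits at the calcium channel genes, TTGGC was found in 17.6%, CAGATG in 13.9%, CAGCTG in 5.56% and CAGCAGG in 2.78%, and ACCGGAAG and the palindrome in none. The base composition of these sets differed, with a median GC content of 57% for Chd7, 52.1% for all H3K27ac and 48.8% for the H3K27ac summits at the calcium channel genes. A match is a run of letters and not a measured binding site.

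The strongest of the 3 Chd7 peaks was that of *Cacna1c*. It spanned 713 bp at chr6:118724625-118725337, with 24 fragments at the summit (Poisson interval 15.4 to 35.7), 4.64 times the local background (the fold enrichment), and its −log10 q-value was 6.41. The *Cacna1a* peak at chr8:84554622-84555148 had 21 fragments (13 to 32.1), with fold enrichment 3.92 and −log10 q-value 4.21. The *Cacna2d1* peak at chr5:16086887-16087401 had 17 fragments (9.9 to 27.2), with fold enrichment 4.02 and −log10 q-value 3.51. These intervals overlap, so the 3 summits are not told apart at this depth. All 3 were moderate peaks, since the median WT Chd7 peak had 21 fragments and a fold enrichment of 4.07. At the 7 other genes the nearest Chd7 peak lay between 199 kb (*Cacna1e*) and 1409 kb (*Cacna2d3*) away.

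All 3 Chd7 peaks overlapped H3K27ac, as did 77.9% of WT Chd7 peaks in all. At *Cacna1c* and *Cacna2d1* they lay in broad acetylated elements. The *Cacna1c* element was 3566 bp wide with an H3K27ac fold enrichment of 14.16, and the *Cacna2d1* element 3277 bp wide with one of 10.99. Over all H3K27ac peaks overlapped by Chd7 the medians were 1529 bp and 10.59, next to 625 bp and 4.25 for those without Chd7. At *Cacna1a* the single Chd7 peak bridged a pair of narrow H3K27ac peaks of 413 and 336 bp, with fold enrichments of 4.90 and 4.85. Thus 4 of the 108 H3K27ac peaks at the 10 genes, 3.7% (interval 1.02 to 9.21%), were overlapped by Chd7, next to 4.98% of all H3K27ac peaks. With peaks of −log10 q-value of at least 5 alone, the Chd7 peak of *Cacna1c* remained and 1.33% of the H3K27ac peaks were overlapped. Shares over all peaks and genes at that threshold are not given here, and the 4.98% holds without it.

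**Figure D1:**
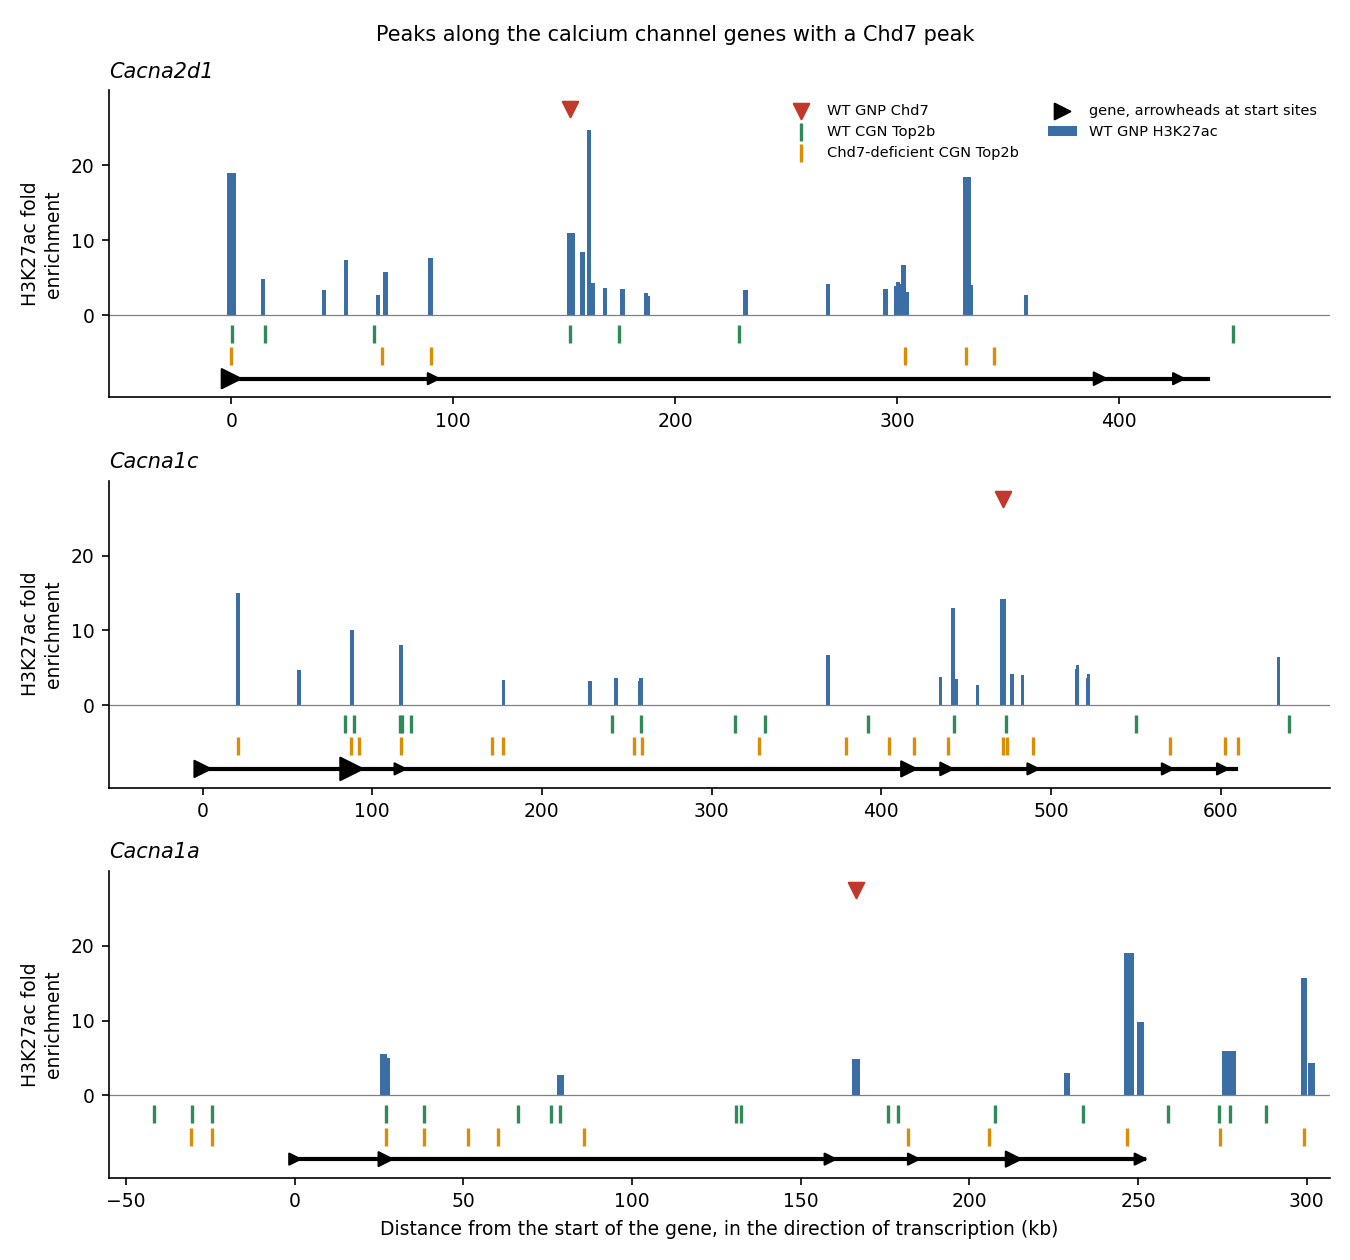
Peaks along *Cacna2d1*, *Cacna1c* and *Cacna1a* by distance in kb from the start of the gene. Blue bars give the fold enrichment of H3K27ac peaks of WT GNPs, drawn at least 2 kb wide, red triangles the WT Chd7 peaks, green and orange ticks the Top2b peaks of WT and *Chd7*-deficient CGNs, and black lines the genes with larger arrowheads at start sites of more transcripts. The Chd7 peaks lie 152.5, 471.6 and 166.3 kb into the genes, each over H3K27ac and away from the start sites.

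H3K27ac was present in the windows of all 10 genes, with 108 peaks, and in those of 86.5% of protein-coding genes of 100 kb or more. Its amount differed widely between the 10 genes. *Cacna2d1* had 26 peaks, *Cacna1c* 22, *Cacna2d3* 13, *Cacna1e* 12, *Cacna1a* and *Cacna1d* 11 each, *Cacna2d2* 5, *Cacnb4* 4, and *Cacna1b* and *Cacnb2* 2 each. The number did not follow gene length alone, because the longest gene, *Cacna2d3*, had 1.42 peaks per 100 kb of window against 4.82 in *Cacna2d1*. The median over the 10 genes was 2.01 per 100 kb, next to 1.1 over protein-coding genes of 100 kb or more. Of the 108 peaks, 92 lay inside the genes, 74 of them in introns or an exon away from any start site, 14 were at a start site of the gene itself and 14 at a start site of another gene. Their median fold enrichment was 4.17 (range 2.36 to 24.75) and that of all H3K27ac peaks 4.35. Peaks at the genes' own start sites had a median of 6.14, and those in introns or exons one of 3.71.

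**Figure D2:**
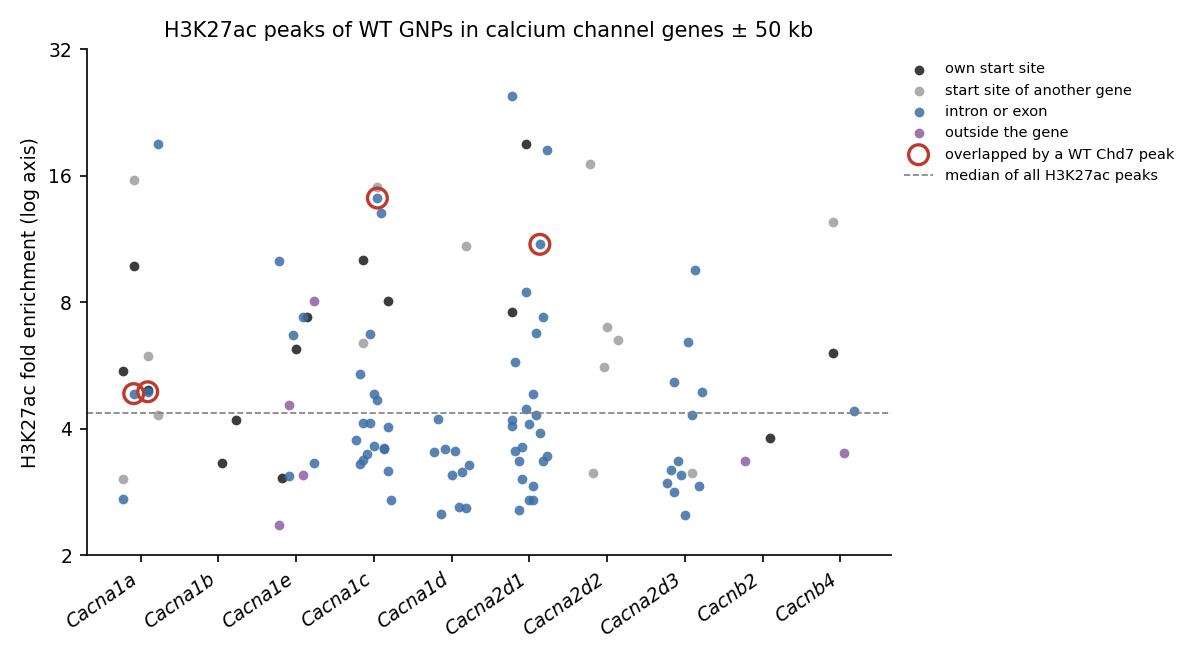
Fold enrichment of each H3K27ac peak of WT GNPs (log axis) in the windows of the 10 genes, coloured by place, with red rings around the 4 peaks overlapped by WT Chd7 and a dashed line at 4.35, the median of all H3K27ac peaks. The highest values are an intronic peak of *Cacna2d1* at 24.75, an intronic peak of *Cacna1a* at 19.04 and the *Cacna2d1* start site at 19.02.

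*Cacna1a* (ENSMUSG00000034656.17, chr8:84388440-84640246, plus strand) carries the P/Q-type pore of Purkinje and granule cell synapses. Its H3K27ac was stronger near the 3′ end than at the start. The single non-coding transcript that defines the annotated start had no peak there, whereas the start of 3 coding transcripts, 26.9 kb further in, had a pair of peaks with fold enrichments of 5.48 and 4.95. The strongest peak of the gene, 2756 bp wide with a fold enrichment of 19.04, lay in an intron 247.3 kb from the start. A neighbouring peak of 9.77 lay 250.7 kb in, at the start of a non-coding transcript. The 3 peaks beyond the gene all touched start sites of neighbours, *Ier2* with Gm26664, *Nacc1* with *Trmt1*, and *Trmt1* alone, with fold enrichments of 5.96, 15.65 and 4.32.

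*Cacna1b* (ENSMUSG00000004113.18, chr2:24603887-24763152, minus strand), the N-type pore, had little acetylation. Its 2 peaks were both at start sites, 1 at the start of 5 coding transcripts with a fold enrichment of 4.20 and 1 at the start of another coding transcript 155.6 kb in with a fold enrichment of 3.32. No intronic peak was called.

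*Cacna1e* (ENSMUSG00000004110.16, chr1:154390731-154884501, minus strand), the R-type pore, had its 12 peaks in the 5′ part of the window. They ran from 34.0 kb upstream to 93.0 kb inside a gene of 493.8 kb. At the 5′-most start, used by 2 non-coding transcripts, the stronger of 2 peaks had a fold enrichment of 6.21, and 3.9 kb upstream of the start stood a peak of 8.05. The start of a non-coding transcript at 67.6 kb had 7.37, and the highest value, 10.04, was in an intron 78.9 kb in. The start of 2 coding transcripts at 158.1 kb and that of another at 20.4 kb had no H3K27ac peak within 1 kb.

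*Cacna1c* (ENSMUSG00000051331.15, chr6:118587240-119196418, minus strand) and *Cacna1d* (ENSMUSG00000015968.17, chr14:30039939-30491455, minus strand) encode the neuronal L-type pores, which couple calcium entry to transcription. They differed in acetylation. *Cacna1c* was marked not at its 5′-most start but at internal coding starts, the start of 12 coding transcripts 87.8 kb in, with a fold enrichment of 10.10, and 1 at 116.4 kb, with 8.06. Its strongest intronic peaks were in the 3′ part of the gene, at 442.1 kb (13.03) and at 471.6 kb (14.16, the element with Chd7). Its highest value, 15.06, belonged to the start site of *Dcp1b*, a gene nested in its window. *Cacna1d* had 11 peaks, none within 1 kb of its own starts. Apart from the start site of *Dcp1a* (10.89), its peaks were weak, with fold enrichments between 2.51 and 4.23, and lay in introns from 199.7 to 439.0 kb.

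In H3K27ac peaks inside the gene, the α2δ genes ran from 0 at *Cacna2d2* to 26 at *Cacna2d1*. *Cacna2d1* (ENSMUSG00000040118.15, chr5:15934691-16374511, plus strand), whose product binds the drug gabapentin, had 26 peaks, all inside the gene, over 28.3 kb of sequence. Its main start, shared by 8 coding transcripts, was covered by a 3776-bp peak with a fold enrichment of 19.02 and 158.12 scaled fragments at the summit. The strongest intronic peaks were at 153.0 kb (10.99, with Chd7), 158.3 kb (8.48), 161.2 kb (24.75) and 331.3 kb (18.43). The peak at 161.2 kb, the strongest at any of the 10 genes, ranked above 98.6% of all H3K27ac peaks and was not overlapped by Chd7.

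*Cacna2d2* (ENSMUSG00000010066.15, chr9:107399612-107529343, plus strand), mutated in the ataxic ducky mouse, had no H3K27ac inside the gene. Its 5 peaks all lay beyond its 3′ end at the start sites of *Tmem115*, *Cyb561d2* with *Nprl2*, *Rassf1*, *Tusc2*, and *Hyal2* with Gm9917. Their fold enrichments from 3.14 to 17.11 are thus values at start sites of neighbours, and a link to *Cacna2d2* was not tested. *Cacna2d3* (ENSMUSG00000021991.9, chr14:28904943-29721864, minus strand) had 13 peaks inside the gene and none at its own starts. Most were weak, with a median fold enrichment of 3.19, and the strongest, 9.55 over 2776 bp, lay 498.4 kb in.

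Of the β genes, *Cacnb4* had 1.15 H3K27ac peaks per 100 kb of window and *Cacnb2* 0.413. The median over protein-coding genes of 100 kb or more was 1.1. *Cacnb4* (ENSMUSG00000017412.15, chr2:52428320-52676831, minus strand), mutated in the ataxic lethargic mouse, had 4 peaks, of which 1 at its start had a fold enrichment of 6.06 and 1 in an intron 61.4 kb in had 4.42. The strongest, 12.41, was at the start site of *Arl5a* outside the gene. *Cacnb2* (ENSMUSG00000057914.15, chr2:14603088-14987908, plus strand) had 2, a weak peak of 3.80 at a start site 1.2 kb in and a peak of 3.36 beyond the 3′ end.

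Thus 7 of the 10 genes had H3K27ac within 1 kb of at least 1 of their starts, next to 59.4% of protein-coding genes of 100 kb or more and 46.6% of all protein-coding genes. The exceptions were *Cacna1d*, *Cacna2d2* and *Cacna2d3*. With coding transcripts alone *Cacna1e* dropped out. A gene counts when any of its starts has a peak, and the number of starts was not matched between the groups. Of 58 start sites of the 10 genes, after starts near each other had been joined, 12 had H3K27ac. Chd7 was found at none of the 58.

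**Figure D3:**
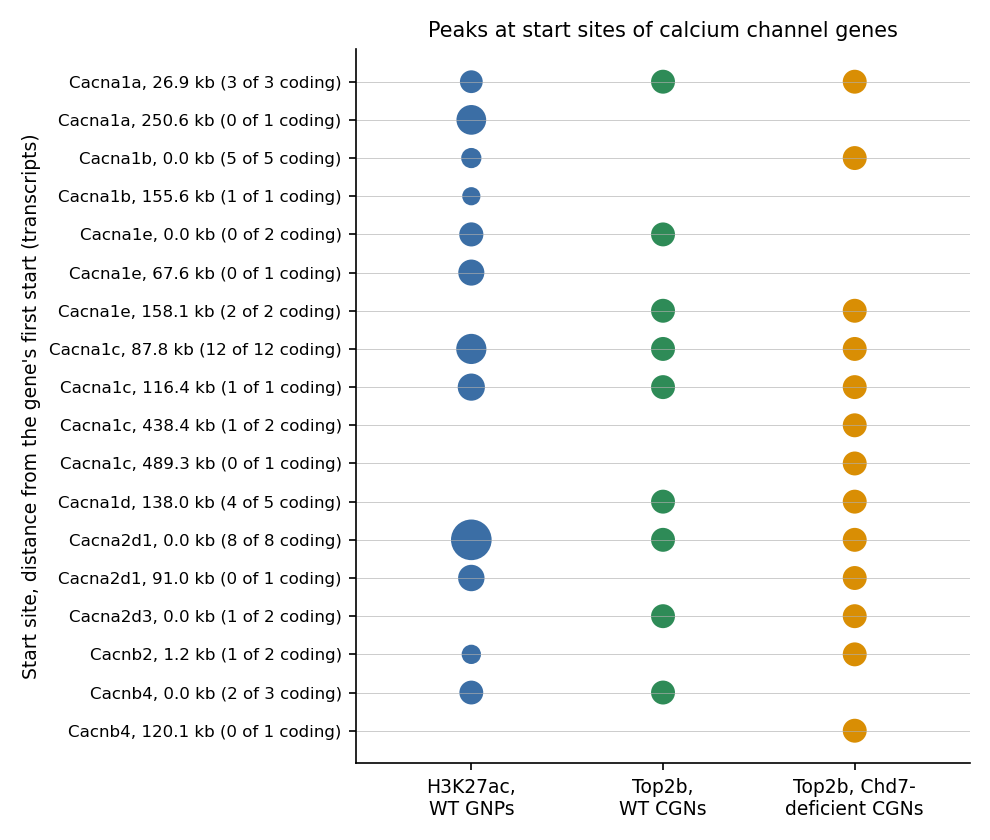
Start sites of the 10 genes that had a peak within 1 kb, named by gene, distance from the 5′-most start and the number of transcripts that are coding. Blue circles mark H3K27ac of WT GNPs, with an area proportional to the fold enrichment, and green and orange circles of fixed size mark Top2b peaks of WT and *Chd7*-deficient CGNs. The start of *Cacna2d1* has the largest H3K27ac circle and Top2b in both libraries. Starts of *Cacna1d*, *Cacna2d3* and *Cacna1e* (at 158.1 kb) have Top2b in both libraries without H3K27ac. Peaks of both libraries at a start need not overlap.

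Acetylated stretches were compared by joining H3K27ac peaks at the stitching distance usual for super-enhancers and ranking the 17539 joined regions by the summed product of width and pileup. The 612 above the point where the ranked curve passes a slope of 1 were called super-enhancer-like. Both such regions at the 10 genes belonged to *Cacna2d1*. One of 16.5 kb, ranked 432, covered the promoter from 1.5 kb upstream to 15.0 kb downstream of the start. The other, ranked 441, spanned 36.4 kb from 151.3 to 187.7 kb, joined 8 peaks and held the Chd7 peak. Thus 1 of the 10 genes overlapped such a region, next to 6.58% of protein-coding genes of 100 kb or more. Of the other regions that overlapped the genes, the highest were at the 3′ end of *Cacna1a* (rank 691), around the 331.3-kb peak of *Cacna2d1* (rank 802) and around the Chd7 peak of *Cacna1c* (rank 995).

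Top2b was found in the windows of all 10 genes in both genotypes, with 70 peaks in WT and 76 in *Chd7*-deficient CGNs. At least 1 peak was present at 83.7% of protein-coding genes of 100 kb or more in WT and at 88.4% in *Chd7*-deficient CGNs. In the order WT then *Chd7*-deficient, the counts were 18 and 12 for *Cacna1a*, 14 and 19 for *Cacna1c*, 11 and 10 for *Cacna2d3*, 7 and 7 for *Cacna1e*, 7 and 8 for *Cacna1d*, and 7 and 6 for *Cacna2d1*. The other genes had few. *Cacnb4* had 3 and 3, *Cacna1b* 1 and 3, *Cacna2d2* 1 and 4, and *Cacnb2* 1 and 4. WT peaks were more numerous at 3 genes, fewer at 5 and equal at 2, next to 30.7%, 48% and 21.3% of protein-coding genes of 100 kb or more. The density was highest at *Cacna1a*, with 5.12 WT peaks per 100 kb of window next to a median of 0.756 over protein-coding genes of 100 kb or more, and 3.41 next to 0.911 in *Chd7*-deficient CGNs. These counts include peaks outside the gene, in WT CGNs among them peaks at start sites of *Ier2* and Gm26664. At the 10 genes together, 57 of the 70 WT and 64 of the 76 *Chd7*-deficient peaks lay inside the genes.

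**Figure D4:**
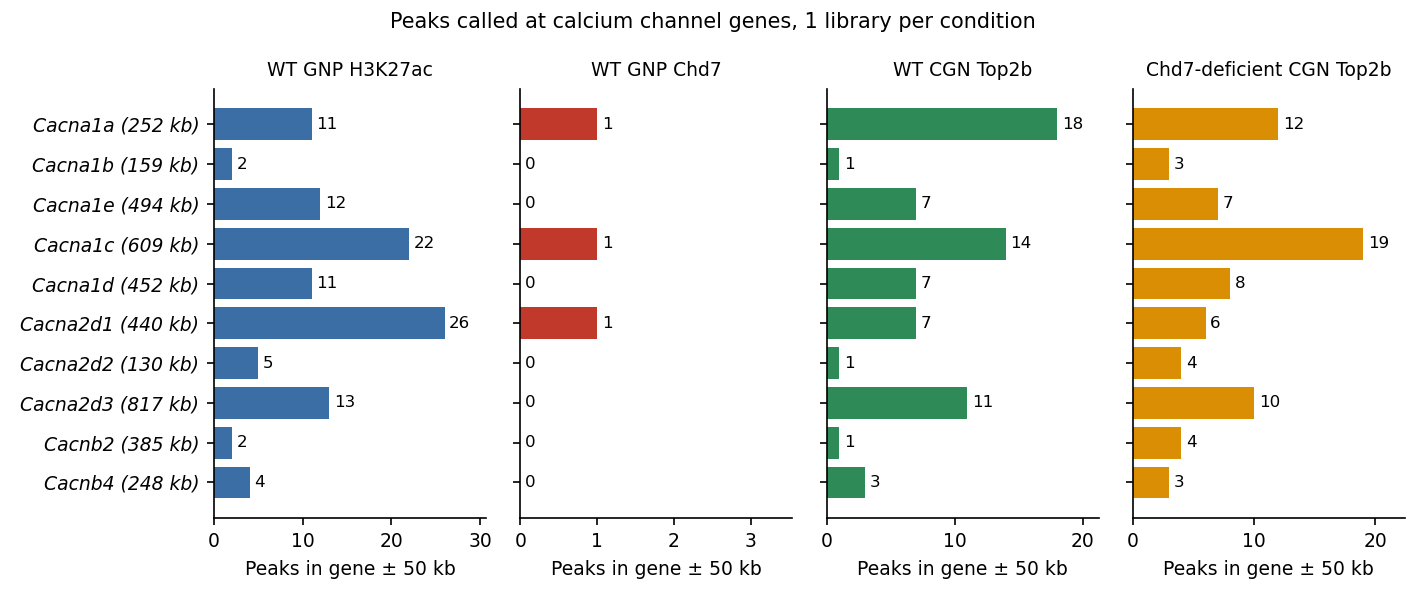
Number of peaks in each gene and 50 kb on either side, for H3K27ac and Chd7 of WT GNPs and Top2b of WT and *Chd7*-deficient CGNs, 1 library each, with the length of the gene in kb. *Cacna2d1* leads for H3K27ac with 26 peaks, *Cacna1a* for WT Top2b with 18 and *Cacna1c* for *Chd7*-deficient Top2b with 19.

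Few of the called Top2b peaks overlapped between the 2 libraries. This compares called positions and not the strength of binding. The paper instead compared the peaks by fold change, and reported altered Top2b association at a minority of sites when *Chd7* was lost. Of the 70 WT peaks at the calcium channel genes, 60 (85.7%, interval 75.3 to 92.9%) had no overlapping peak in *Chd7*-deficient CGNs, next to 83.2% of all WT Top2b peaks. In the other direction 66 of 76 (86.8%, interval 77.1 to 93.5%) had no WT peak, next to 86.7% in all. These shares were near those of the whole tables. Of the 10 shared positions, 5 were at *Cacna1a*, 2 at *Cacna2d3* and 1 each at *Cacna1e*, *Cacna1c* and *Cacnb2*. At *Cacna1a* they included the coding start at 26.9 kb and an intronic site at 38.3 kb, where the centres differed by 0.015 and 0.08 kb. The others there lay outside the gene, 30.4 and 24.4 kb upstream and at the start site of *Ier2* beyond the 3′ end. Of WT Top2b peaks at the genes 22.9% (16 of 70) overlapped H3K27ac of GNPs, next to 17.4% of all, and of *Chd7*-deficient Top2b peaks 25% (19 of 76), next to 26.6%.

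**Figure D5:**
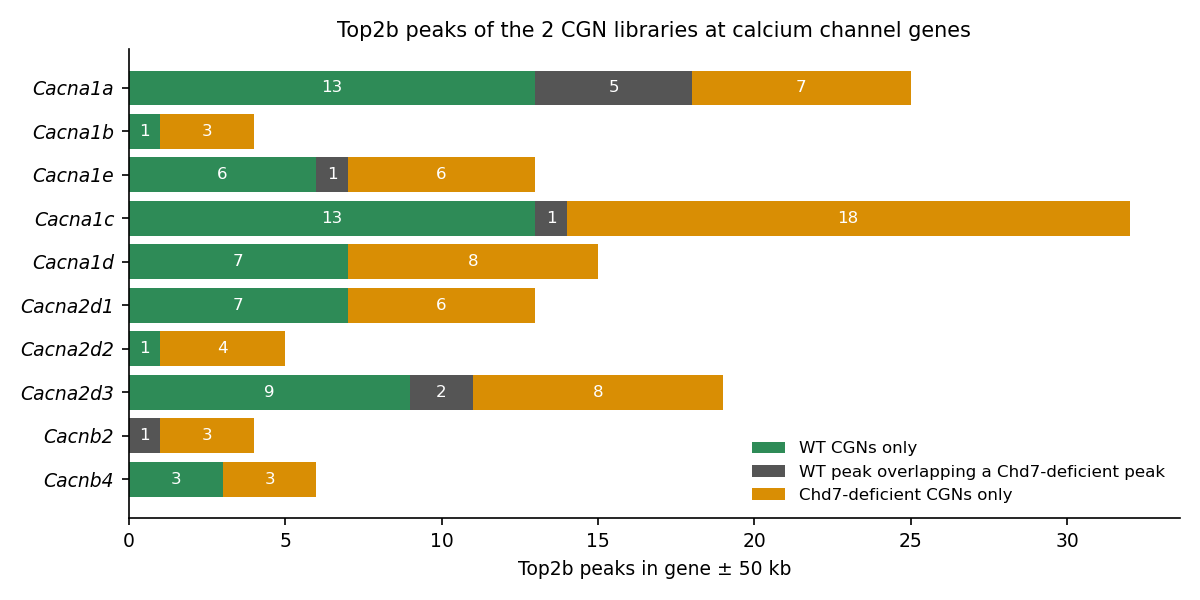
Top2b peaks in the windows of the 10 genes, split into those called in WT CGNs alone, those of WT overlapping a *Chd7*-deficient peak by at least 1 bp, and those called in *Chd7*-deficient CGNs alone. *Cacna1a* has 5 overlapping peaks, and *Cacna1b*, *Cacna1d*, *Cacna2d1*, *Cacna2d2* and *Cacnb4* have none.

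At the start sites Top2b differed between the genes. WT Top2b was within 1 kb of a start at 7 of the 10 genes and *Chd7*-deficient Top2b at 9, next to 29.8% and 44.7% of protein-coding genes of 100 kb or more. A gene counts here when any of its starts has a peak, and the number of starts was not matched. Taken singly, 9 of the 58 start sites of the 10 genes had WT Top2b and 13 had *Chd7*-deficient Top2b. By this distance, 7 of the 58 had Top2b in both libraries, 2 in WT alone and 6 in *Chd7*-deficient CGNs alone. Peaks of both libraries near the same start need not overlap, unlike the shared positions above. The coding starts of *Cacna1a* at 26.9 kb, *Cacna1c* at 87.8 and 116.4 kb, *Cacna2d1* at 0.0 kb, *Cacna2d3* at 0.0 kb, *Cacna1d* at 138.0 kb and *Cacna1e* at 158.1 kb had peaks in both libraries. The peaks did not overlap at *Cacna1c* 87.8 kb, *Cacna1d*, *Cacna2d1* and *Cacna2d3*. Their centres there were 1.39, 1.31, 0.42 and 0.525 kb apart. The 5′-most starts of *Cacna1e* and *Cacnb4* had WT peaks alone, 2 and 1. Those of *Cacna1b*, with 2 peaks, and of *Cacnb2* at 1.2 kb, with 1, had peaks in *Chd7*-deficient CGNs alone, as did internal starts of *Cacna1c* at 438.4 and 489.3 kb, *Cacna2d1* at 91.0 kb and *Cacnb4* at 120.1 kb. *Cacna2d2* had no Top2b at a start in either library. Peak positions without values cannot show whether a site missed in 1 library was below its threshold or without signal.

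Each of the 3 Chd7 sites had a different Top2b neighbourhood. At *Cacna2d1* a WT Top2b peak was centred 0.001 kb from the Chd7 summit, and the nearest peak of *Chd7*-deficient CGNs was 62.4 kb away. At *Cacna1c* the reverse held, with a *Chd7*-deficient Top2b peak 0.100 kb from the Chd7 summit and the nearest WT peak 1.87 kb away. At *Cacna1a* neither library had a peak at the Chd7 site, the nearest being 9.7 kb away in WT and 15.4 kb in *Chd7*-deficient CGNs. Over the 1902 WT Chd7 peaks on assembled chromosomes, 7.36% overlapped Top2b in WT CGNs alone, 25.4% in *Chd7*-deficient CGNs alone, 9.57% in both and 57.7% in neither, so that each of the 3 situations was met elsewhere.

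Of the summits of WT Top2b peaks at the genes, taken as peak centres, 34.3% (24 of 70) held the NFI core, next to 23.1% of all WT Top2b peaks. CAGATG was found in 11.4% of them and in 11.4% of all, CAGCTG in 8.57% and 8.4%, and CAGCAGG in 7.14% and 5.75%. ACCGGAAG was found in none of them and in 0.188% of all. Summits of *Chd7*-deficient Top2b peaks were not searched, and no difference in these shares was tested.

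The 16 other genes of the family, *Cacna1f*, *Cacna1g*, *Cacna1h*, *Cacna1i*, *Cacna1s*, *Cacna2d4*, *Cacnb1*, *Cacnb3* and *Cacng1* to *Cacng8*, were shorter, with a median of 49.98 kb, and some of their windows overlapped. A WT Chd7 peak was found in the window of 1, *Cacnb1*, and H3K27ac at a start site of 4, *Cacna1s*, *Cacnb1*, *Cacnb3* and *Cacng2*. Over all protein-coding genes these shares were 14.3% and 46.6%. Their median was 0.797 H3K27ac peaks per 100 kb of window, next to 2.01 for the 10 genes and 1.59 for all protein-coding genes. In this density *Cacng2* with 7.45, *Cacna1s* with 6.58 and *Cacna1f* with 5.46 exceeded *Cacna2d1*. However, none of the 7 peaks of *Cacna1f* lay inside the gene, and 5 were at start sites of other genes. Inside the gene lay 7 of 11 at *Cacna1s*, 16 of 17 at *Cacng2* and all 26 at *Cacna2d1*. A super-enhancer-like region overlapped 3 of the 16, *Cacna1s*, *Cacnb1* and *Cacng2*, next to 4.18% of all protein-coding genes. *Cacng2*, which encodes stargazin, an AMPA receptor partner mutated in the ataxic stargazer mouse, had 17 H3K27ac peaks with none bound by Chd7, 6 WT and 2 *Chd7*-deficient Top2b peaks. At *Cacnb1*, the β subunit of skeletal muscle, the highest of 3 H3K27ac peaks (33.98) was at the start site of another gene. None of the 16 had WT Top2b at a start site, and 5 had *Chd7*-deficient Top2b there, next to 13.4% and 24.5% of all protein-coding genes.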

How the data were processed

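The authors trimmed reads with Trim Galore, mapped them to mm10 with bowtie 1.0.0 keeping unique alignments, and called Chd7 and H3K27ac peaks with macs2 and Top2b peaks with homer. Which library served as control is not given in the sources used here. The deposited macs2 tables give pileup, a coverage signal (scaled fragments for H3K27ac), and, as other columns, fold enrichment, −log10 p and −log10 q whose decimal points had been lost. These were divided by 100000, and recomputed −log10 p-values differed by at most 0.0026 over the 31348 H3K27ac peaks compared and by less for Chd7. The deposited Top2b tables hold positions only, 396 and 400 bp wide.

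Peaks were assigned to GENCODE M21 genes by their centre within 50 kb, and compared by overlap of at least 1 bp. A start site is within 1 kb of a transcript start. All 10 listed genes are named, and of 16 other family genes those with a Chd7 peak in the window or H3K27ac at a start, besides genes whose starts lie at a described peak. Members and lists were chosen with earlier results of these data known. With 1 library per condition no test between conditions was made. Window counts and overlaps were tested on simulated data. Alternatives changed window, peak threshold, overlap, start sites and stitching. The tools were pysam 0.24.0, scipy 1.17.1, matplotlib 3.10.9, pandas 2.3.3 and numpy 2.4.6 under Python 3.11.15.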

Additional observations from a re-analysis of the deposited data

How the results depend on the processing

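Of 36 alternative values, 33 stayed within 1.5 times the reported count or, for shares, within its counting interval. These include the 0 Chd7 peaks of *Chd7*-deficient GNPs, which settings that only remove peaks could not change. The count of WT Chd7 peaks and that of genes with such a peak rest on the same peaks. With −log10 q-values of at least 5, only 1 WT Chd7 peak remained, at 1 gene, *Cacna1c*, and the share of H3K27ac peaks overlapped by Chd7 fell to 1.33%, inside its wide interval. Shares over all peaks and genes at that threshold are not given here. When H3K27ac peaks at start sites were left out before stitching, 5 super-enhancer-like regions were found, 2 at *Cacna2d1*, 2 at *Cacna1c* and 1 at *Cacna1a*. In that setting 690 of 10308 regions passed the cut in all, next to 612 of 17539 in the main one. Counting peaks in the gene body alone or within 100 kb gave 92 or 146 H3K27ac peaks, 57 or 84 WT Top2b peaks and 3 WT Chd7 peaks in both cases. Genes with H3K27ac at a start site numbered 8 within 2.5 kb, with *Cacna1d* added, and 6 for coding transcripts, without *Cacna1e*. The alternative of keeping the stronger Top2b peaks was not run, since those tables hold no values. No paired analysis was possible because each condition has 1 library. The tables give no read total per library, and a missing peak is not evidence of missing binding.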
